A study of Mus musculus with 15 samples.

Results

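Bhlhe40, Bhlhe41, Ciart, Usp2 and Nampt are clock-linked genes that CLOCK and BMAL1 are known to drive through E-boxes. They were taken by gene symbol from a table of 24419 genes, in which all 5 were present, and all 5 were among the 16910 genes with enough counts to be tested. The table holds read counts from RNA sequencing of the SCN (suprachiasmatic nuclei), the seat of the circadian pacemaker in the hypothalamus, punched from C57BL/6 mice aged 8 to 12 weeks. The genotypes are control and REV-ERBS DKO, a double knockout of the nuclear receptors REV-ERB alpha (gene Nr1d1) and beta (Nr1d2). Tissue was taken at circadian time (CT) 4 or 16 h, in the subjective day or night. At CT4 each genotype has 3 libraries, while CT16 has 5 from control mice and 4 from DKO mice. Each library pooled 2 to 4 punches. The labels name neither the targeted alleles nor a Cre driver, and they do not say what alleles the controls carry.

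The mammalian clock is a feedback loop in which CLOCK, or its relative NPAS2, pairs with BMAL1 (gene Arntl) and activates genes through the E-box, a short DNA element. Some of the activated genes encode repressors that act back on the pair. BHLHE40 and BHLHE41 (DEC1 and DEC2) are basic helix-loop-helix repressors that compete for E-boxes, and CIART (CHRONO) represses the activator pair directly. USP2 is a ubiquitin-specific protease that removes ubiquitin from clock proteins, and NAMPT is the rate-limiting enzyme of NAD salvage, so both are outputs that link the clock to protein turnover and metabolism. REV-ERBs are repressors of a second loop and keep the transcription of activator genes such as Arntl and Npas2 in check through ROR elements.

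Total counts were 32580803 to 68757624 per library. All 18 markers of the SCN were detected in every library, with a summed expression of 863.7 to 1720 CPM (the count scaled to library size). Markers of neighbouring hypothalamic nuclei and of myelin were also present and uneven, at 541.6 to 1244 CPM and 3192 to 20620 CPM. Control CT4 replicate 1 and DKO CT16 replicates 3 and 4 stood apart from others of their group in these markers. Results are also given without these 3 libraries where that matters. Control CT16 was split in myelin markers too, at 8078 and 10110 CPM in replicates 1 and 2 and 3192 to 3840 CPM in the rest. Its libraries were left out only singly. In such tissue samples, fewer cells of a type and less RNA per cell cannot be told apart. Counts of the targeted genes are no check of the genotype, since they sum all exons: Nr1d1 rose by 1.15 ± 0.12 (log2 fold change ± standard error) in DKO at CT16 (edgeR quasi-likelihood test, adjusted p = 6.93e-05). Which animals went into each pool is not stated, and p-values reflect only the scatter among pools, part of which may be technical.

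The promoters of Ciart and Bhlhe41, the pair that changed most in DKO at CT16, are shown because both hold the perfect E-box CACGTG. The 250 bases before the RefSeq transcription start are given 5′ to 3′ on the strand of the gene (GRCm38.p6, the assembly of mm10), with each CACGTG in capitals. Ciart is at chr3:95882229-95882478, minus strand, and Bhlhe41 at chr6:145865421-145865670, minus strand.
Ciart: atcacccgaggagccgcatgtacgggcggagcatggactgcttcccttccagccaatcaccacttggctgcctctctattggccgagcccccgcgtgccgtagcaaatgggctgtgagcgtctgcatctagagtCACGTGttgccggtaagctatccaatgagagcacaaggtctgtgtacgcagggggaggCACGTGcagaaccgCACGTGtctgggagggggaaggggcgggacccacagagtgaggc
Bhlhe41: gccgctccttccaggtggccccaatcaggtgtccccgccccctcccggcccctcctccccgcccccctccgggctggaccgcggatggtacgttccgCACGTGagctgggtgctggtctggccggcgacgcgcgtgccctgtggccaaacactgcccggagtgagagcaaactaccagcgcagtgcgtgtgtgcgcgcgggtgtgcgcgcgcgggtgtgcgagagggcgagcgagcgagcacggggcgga

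The Ciart promoter held 3 copies of CACGTG, which started at positions -116, -58 and -44 from the transcription start, and the Bhlhe41 promoter held 1, at -153. The window searched ran from 250 bases before to 50 bases after the start. Of 32851 RefSeq promoter windows of 300 bases, 7.15% held CACGTG and 0.0883% (29 windows) held 3 or more copies. The windows of Usp2 and Nampt held none. That of Usp2 lies at a start inside the gene, and the bases before its first exon block were not searched. The related element CACGTT, the D-boxes TTATGTAA and TTACGTAA and the ROR half-sites TAGGTCA and TGGGTCA, all searched on both strands, matched none of the 4 windows, against 4.68%, 0.938%, 0.119%, 2.61% and 3.98% of all windows. CACGTG reads the same on both strands. Of the 5 genes, 4 had a promoter entry, and Bhlhe40 had none. A match is a run of letters, and no binding was measured here.

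Ciart lies on chromosome 3 (95878505 to 95882228, minus strand, mm10) in 6 exon blocks, and Bhlhe41 on chromosome 6 (145858243 to 145865420, minus strand) in 5. Bhlhe40 lies on the same chromosome (108660629 to 108666925, plus strand) in 5 blocks, Usp2 on chromosome 9 (44067021 to 44095627, plus strand) in 15 and Nampt on chromosome 12 (32820335 to 32853369, plus strand) in 11. The strand setting of the counting is not given in the sources used here. In GENCODE M21, opposite-strand transcripts share 118 of the 3113 exonic bases of Bhlhe40 (0610040F04Rik), 855 of the 6124 of Bhlhe41 (Gm43909) and 200 of the 4386 of Usp2 (Gm39325 and Gm49380). If the counting did not use strand, reads from those stretches cannot be told apart. Of these partners, 0610040F04Rik is listed in the table and did not pass in DKO (0.76 ± 0.27 at CT4, adjusted p = 0.19, and 0.26 ± 0.22 at CT16, adjusted p = 0.523, edgeR quasi-likelihood test).

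Ciart was the member with the largest genotype difference. In control SCN at CT4 its level was 12.7, 14.5 and 15.7 CPM, and in DKO 19.6, 21.1 and 21.5 CPM. At CT16 the 5 control libraries held 8.27, 10.4, 11.7, 11.8 and 13.5 CPM, and the 4 DKO libraries 24.4, 29.7, 35.2 and 36.3 CPM. Every DKO library was thus above every control library of the same time, and the lowest DKO library at night was also above all 3 control libraries of the day. At CT16 Ciart rose by 1.49 ± 0.13 on the log2 scale, or 2.82-fold (95% interval 2.32 to 3.42, edgeR quasi-likelihood test, adjusted p = 8.89e-06). The difference at CT4 was 0.54 ± 0.16 (1.45-fold, interval 1.15 to 1.85), which did not pass over all genes (adjusted p = 0.123). It passed with DESeq2 (adjusted p = 0.0351) and in a fit of the CT4 libraries alone (adjusted p = 0.00686). Those settings called 584 and 794 genes in all, against 217 in the main fit. In 21 of 23 alternative settings it stayed uncalled (edgeR quasi-likelihood test, highest adjusted p = 0.394).

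Bhlhe41 followed the same order of groups with a smaller range. At CT4 it stood at 65.2, 67.6 and 70.5 CPM in control and 82.5, 88.5 and 96 CPM in DKO. At CT16 it stood at 46.7, 50.3, 53.8, 54.6 and 64.4 CPM in control and at 87.8, 93.2, 112 and 120 CPM in DKO. The genotypes did not overlap at either time (as for 25.4% of all genes at CT4 and 6.97% at CT16), and the gap between them was wider in the night. Bhlhe41 rose 1.91-fold at CT16 (log2 0.94 ± 0.10, interval 1.66 to 2.21-fold, edgeR quasi-likelihood test, adjusted p = 4.43e-05). At CT4 the difference was 1.31-fold (log2 0.39 ± 0.12, interval 1.1 to 1.57-fold) and did not pass (adjusted p = 0.131), though it did with DESeq2 (0.0401), in the CT4 libraries alone (0.0032) and with marker scores of neighbouring nuclei and myelin as covariates (0.0132). Those settings called 584, 794 and 140 genes in all, against 217 in the main fit. The CT4 difference of Bhlhe41 stayed uncalled in 20 of 23 alternative settings (edgeR quasi-likelihood test, highest adjusted p = 0.375). At CT4 the score of neighbouring nuclei was 0.451 to 0.923 in DKO and -0.875 to 0.478 in control. This score is the mean log2 difference of the markers from the average library.

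Bhlhe40, the paralog of Bhlhe41, was the 1 member called at both times. Its level at CT4 was 52.5, 56.2 and 62.9 CPM in control and 74.6, 79.1 and 88.3 CPM in DKO. At CT16 it was 36.6, 41.4, 42.5, 46.9 and 48.2 CPM in control and 64.1, 66.9, 66.9 and 75.7 CPM in DKO. Both groups of DKO libraries lay above both groups of control libraries, so that the night level in DKO exceeded the day level of control. Bhlhe40 rose 1.41-fold at CT4 (log2 0.50 ± 0.10, edgeR quasi-likelihood test, adjusted p = 0.0256) and 1.59-fold at CT16 (log2 0.66 ± 0.08, adjusted p = 0.000102). The CT4 call did not hold without control CT4 replicate 2 (0.44, adjusted p = 0.144) or replicate 3 (0.48, 0.116), or without DKO CT4 replicate 1 (0.55, 0.0526), 2 (0.43, 0.108) or 3 (0.51, 0.0806). It was also lost with the marker scores as covariates (0.40, adjusted p = 0.0791).

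**Figure D1:**
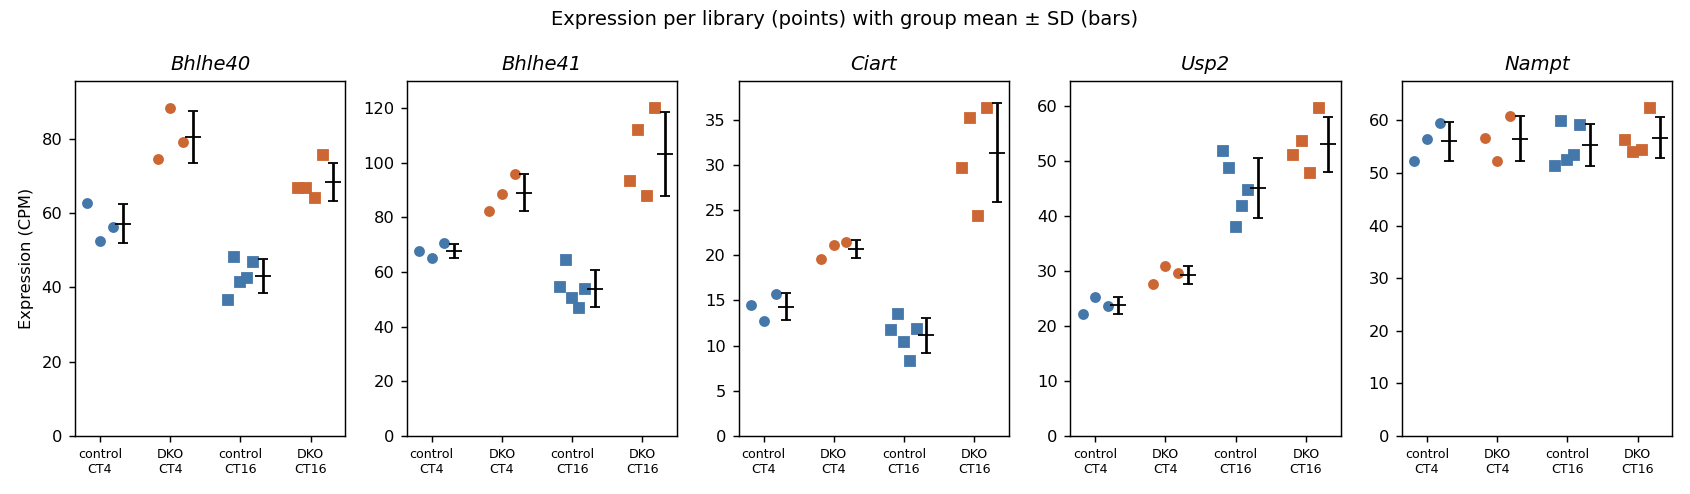
Expression in CPM (y axis, from 0, scaled per gene) of the 5 genes in each library (points, circles at CT4 and squares at CT16) by genotype and time (x axis), with group mean ± SD as bars. Ciart, Bhlhe41 and Bhlhe40 have all DKO libraries above the control libraries of the same time, Usp2 is higher at CT16 in both genotypes, and the 4 Nampt groups overlap.

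Usp2 differed from the 3 repressors: its widest separation was between times. In control it stood at 22.2, 23.5 and 25.3 CPM at CT4 and at 37.9, 41.8, 44.7, 48.7 and 51.8 CPM at CT16. In DKO it stood at 27.5, 29.5 and 30.8 CPM at CT4 and at 47.7, 51, 53.5 and 59.5 CPM at CT16. Night libraries lay above day libraries in both genotypes with no overlap. Usp2 rose from CT4 to CT16 by 1.9-fold in control (log2 0.92 ± 0.10, edgeR quasi-likelihood test, adjusted p = 5.4e-05) and by 1.81-fold in DKO (log2 0.85 ± 0.10, adjusted p = 0.000386). The genotype differences were 1.24-fold at CT4 (interval 1.06 to 1.44, adjusted p = 0.174) and 1.18-fold at CT16 (interval 1.04 to 1.33, adjusted p = 0.127), and neither passed. At CT4 the genotypes did not overlap, as held for 25.4% of all genes. Usp2 passed there in the CT4 libraries alone (adjusted p = 0.0405) and with the marker scores as covariates (0.0478, edgeR quasi-likelihood test). These fits called 794 and 140 genes in all, against 217 in the main fit. The CT4 difference stayed uncalled in 21 of 23 alternative settings (edgeR quasi-likelihood test, highest adjusted p = 0.382). At CT16 2 of the 5 control libraries, at 48.7 and 51.8 CPM, lay above the lowest DKO library.

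Nampt was even across all 15 libraries. It ranged from 52.2 to 59.5 CPM in control and 52.2 to 60.8 CPM in DKO at CT4, and from 51.3 to 59.9 CPM and 54 to 62.3 CPM at CT16. The group means lay between 55.3 and 56.7 CPM, with standard deviations of 3.66 to 4.32 CPM. The genotype difference was 0.01 ± 0.08 at CT4 (edgeR quasi-likelihood test, adjusted p = 0.957) and 0.04 ± 0.06 at CT16 (adjusted p = 0.794). The 95% intervals allowed a fold between 0.9 and 1.13 at CT4 and between 0.933 and 1.13 at CT16, which lies below the folds of the 3 repressors at CT16. The difference between times was equally small, with intervals of 0.891 to 1.1-fold in control and 0.9 to 1.12-fold in DKO.

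Counted together, 1 of the 5 members rose in DKO at CT4 and 3 rose at CT16, and none fell. Over all 16910 tested genes, 1.28% were called at CT4 (0.574% higher and 0.71% lower in DKO) and 4.66% at CT16 (2.83% higher and 1.83% lower). The median difference of the members was 0.39 at CT4 and 0.66 at CT16, against -0.00226 and 0.00225 over all genes. Genotypes did not overlap for 4 members at CT4, all with DKO higher, where this held for 25.4% of all genes (12.1% with DKO higher and 13.3% with DKO lower). At CT16 they did not overlap for 3 members, against 6.97% of all genes (4.03% higher and 2.94% lower).

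**Figure D2:**
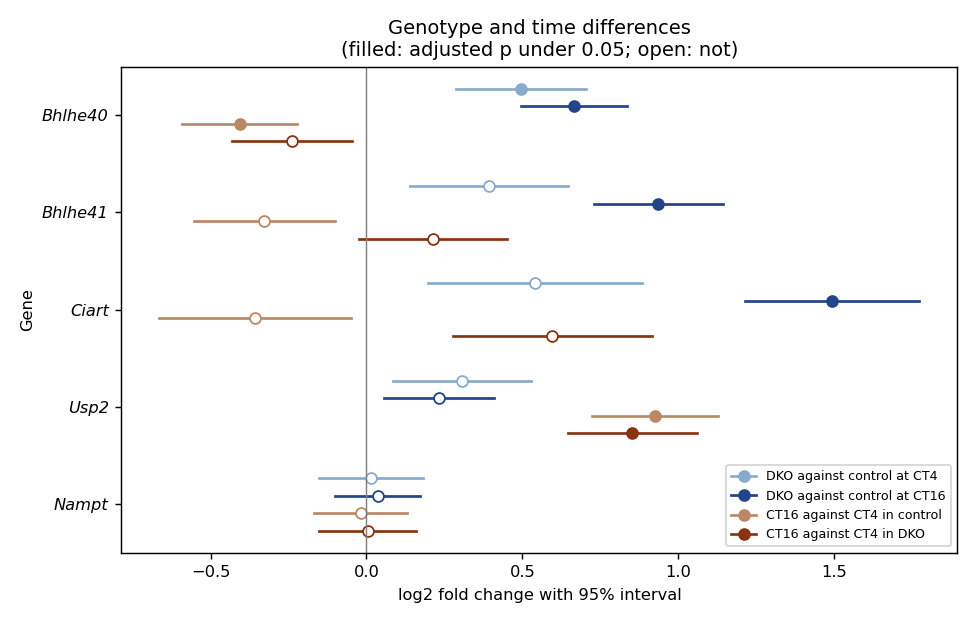
Log2 fold changes (x axis) with 95% intervals (lines) of the 5 genes (y axis) for genotype at each time (blue) and time in each genotype (brown), where filled points passed an adjusted p of 0.05. The genotype differences of Ciart, Bhlhe41 and Bhlhe40 lie right of 0 at both times, both time differences of Usp2 lie near 0.9, and all intervals of Nampt include 0.

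The comparison of the times asked how these transcripts moved from subjective day to subjective night with and without REV-ERBs. In control, Bhlhe40 fell at night by 0.41 ± 0.09 on the log2 scale (0.754-fold, edgeR quasi-likelihood test, adjusted p = 0.0154). Bhlhe41 stood at -0.33 ± 0.11 (adjusted p = 0.097) and Ciart at -0.36 ± 0.14 (adjusted p = 0.182). The night libraries of Bhlhe40 and Bhlhe41 lay below all day libraries, and those of Ciart overlapped them. The call of Bhlhe40 was lost without control CT4 replicate 1 (-0.33, adjusted p = 0.0974) or replicate 3 (-0.42, adjusted p = 0.0502), and without the 3 libraries that stood apart (-0.33, adjusted p = 0.0564). Cell type markers moved with this comparison, in which 4.21% of all genes were called. At CT16 in control, 3 of 18 SCN markers (16.7%) and 3 of 12 microglia markers (25%) were called lower. Their medians were -0.36 and -0.41. Of 12 endothelial markers 1 rose and 2 fell (25%, median -0.16). Of 23 markers of neighbouring nuclei 2 rose and 1 fell (13%, median 0.21). Of 12 astrocyte markers 1 fell (8.33%), and no myelin or ependymal marker was called. Summed SCN markers were 1401 to 1555 CPM at CT4 and 863.7 to 1499 CPM at CT16, which overlap, and summed microglia markers were 366.9 to 437.3 CPM and 303.1 to 349.4 CPM, which do not. No SCN or microglia marker was at 0 in a library. The part of cell type markers in the result was not tested. Bhlhe41 passed without control CT16 replicate 2 (-0.40, adjusted p = 0.0293), the highest of its group. It also passed with DESeq2 (adjusted p = 0.0409) and the marker scores as covariates (-0.21, adjusted p = 0.0382). Those 2 settings called 1317 and 1279 genes in all, against 712 in the main fit. In 20 of 23 alternative settings it stayed uncalled (edgeR quasi-likelihood test, highest adjusted p = 0.257).

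In DKO the sign of the difference between times was not the same for the 3 repressors. Bhlhe40 stood at -0.24 ± 0.09 (adjusted p = 0.178), Bhlhe41 at 0.21 ± 0.11 (adjusted p = 0.319) and Ciart at 0.60 ± 0.15 (1.51-fold, edgeR quasi-likelihood test, adjusted p = 0.0554). The 4 night libraries of Ciart were above the 3 day libraries, whereas those of Bhlhe40 and Bhlhe41 overlapped with the day. Ciart passed with DESeq2 (adjusted p = 0.00632), without control CT16 replicate 2 (0.60, 0.041) or 4 (0.59, 0.0295), without DKO CT16 replicate 3 (0.70, 0.00637), and without the 3 libraries that stood apart (0.64, 0.0241). Ciart stayed uncalled in 18 of 23 alternative settings (edgeR quasi-likelihood test, highest adjusted p = 0.18). Over all genes, 874 were called with DESeq2, 1456 without DKO CT16 replicate 3 and 1182 without the 3 libraries, against 304 in the main fit. Of the 5 members, 1 rose and 1 fell with time in control, beside 4.21% of all genes called (2.13% higher and 2.08% lower at CT16). In DKO 1 member rose, beside 1.8% called (1.29% higher and 0.509% lower). Among markers in DKO, none of 18 for SCN was called (7 at an unadjusted p under 0.05, median 0.81). Of 23 for neighbouring nuclei 1 fell (4.35%, median -0.68). Of 12 each, 2 microglia and 2 endothelial markers fell, and 1 astrocyte marker rose and 1 fell (16.7% each). No myelin or ependymal marker was called. The part of these markers in the DKO time differences was not tested. Day and night did not overlap for 3 members in control, against 15.8% of all genes (7.99% higher and 7.8% lower), and for 2 in DKO, against 14.7% (8.32% and 6.38%). These comparisons share libraries with those of genotype, so their values stand side by side and are not separate evidence.

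Whether the genotype difference itself changed with time was tested by the interaction. It was largest for Ciart, whose difference at CT16 exceeded that at CT4 by 0.95 ± 0.21 (interval 0.51 to 1.40), and was 0.54 ± 0.15 for Bhlhe41 (interval 0.21 to 0.87). For Bhlhe40 it was 0.17 ± 0.13 (interval -0.10 to 0.44), for Usp2 -0.07 ± 0.13 (interval -0.36 to 0.21) and for Nampt 0.02 ± 0.10 (interval -0.19 to 0.24). None of the 5 passed over all genes (edgeR quasi-likelihood test, adjusted p = 0.102 for Ciart and 0.15 for Bhlhe41), while 2 had an unadjusted p under 0.05, and DESeq2 called the same 2, Ciart (adjusted p = 0.00325) and Bhlhe41 (0.0386). Over all genes, 2 of 16910 passed with edgeR, or 0.0118%, and 0 of these were negative. DESeq2 called 360 genes, so its 2 member calls stand beside a larger share. The interaction stayed uncalled in 19 of 22 alternative settings for Ciart and 20 of 22 for Bhlhe41. The highest adjusted p was 0.233 and 0.334 (edgeR quasi-likelihood test). Over all these settings the lowest estimates were 0.76 and 0.38, and with single libraries left out they were 0.85 and 0.46. DKO CT16 replicate 3 was the lowest DKO library at CT16 for both genes. Without it, Ciart (1.06, adjusted p = 0.0159) and Bhlhe41 (0.61, adjusted p = 0.0463) passed (edgeR quasi-likelihood test). Ciart also passed without the 3 libraries that stood apart (0.99, adjusted p = 0.0332). Over all genes, 301 and 424 were called in these settings. Marker lists moved in this contrast as well. The median was 1.13 for the 18 SCN markers, -0.94 for the 23 of neighbouring nuclei and 0.71 for the 15 of myelin. None of these markers was called, while 10, 4 and 0 had an unadjusted p under 0.05. The part of cell type markers in the interaction was not tested beyond these values.

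The night libraries of DKO varied among themselves in a shared order. DKO CT16 replicate 4 was the highest of its group for all 5 members, and replicate 3 was the lowest for Bhlhe40, Bhlhe41, Ciart and Usp2. Replicate 4 also had the highest myelin score in the study (1.42) and the highest SCN score (0.675). Replicate 3 had the lowest SCN score of its group (-0.464) and its highest score for neighbouring nuclei (0.662, against -1.15 to -0.655 in the other 3). At CT4 the SCN score was -0.473 to -0.32 in DKO and -0.249 to 0.641 in control, with Avp and Prok2 in both the SCN list and the list of E-box genes below. None of the 18 SCN markers was called in genotype at CT4, but 11 had an unadjusted p under 0.05. DESeq2 called 6 of them lower, among 584 genes it called in all. The share of all genes at the unadjusted threshold was not counted, here or for other lists. The median of the 18 SCN markers was -0.80, and that of the 23 markers of neighbouring nuclei was 0.82. At CT16 these medians were 0.08 and -0.60. There, 2 of 18 SCN markers rose (11.1%), and of 12 astrocyte markers 2 rose and 1 fell (25%), beside 4.66% of all genes. Of 12 ependymal and tanycyte markers 1 rose (8.33%). The part of tissue composition in the levels of the members was not tested beyond the values given here. Without these 2 libraries and control CT4 replicate 1, the CT16 difference was 1.54 ± 0.14 for Ciart, 0.92 ± 0.10 for Bhlhe41 and 0.63 ± 0.09 for Bhlhe40, each still called (edgeR quasi-likelihood test, adjusted p = 1.46e-05, 0.000282 and 0.000703).

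Levels of different genes were compared as CPM per kilobase of exon. In control at CT4, Bhlhe40 led with 18.4 ± 1.69 (mean ± SD, n = 3), followed by Nampt (12.3 ± 0.806), Bhlhe41 (11.1 ± 0.434) and Ciart (10.2 ± 1.08), and Usp2 was last (5.4 ± 0.356). Bhlhe40 and Usp2 stood clear of the rest, while Ciart overlapped Bhlhe41, and Bhlhe41 reached the lowest Nampt library. In control at CT16 the order was Bhlhe40 (13.8 ± 1.49, n = 5), Nampt (12.2 ± 0.88), Usp2 (10.3 ± 1.25), Bhlhe41 (8.81 ± 1.08) and Ciart (7.98 ± 1.4), and each overlapped the next. In DKO at CT4 Bhlhe40 (25.9 ± 2.26, n = 3) was above Ciart (14.9 ± 0.709) and Bhlhe41 (14.5 ± 1.1), which overlapped, and Nampt (12.4 ± 0.949) and Usp2 (6.68 ± 0.383) were lower still without overlap. In DKO at CT16, the means of Ciart (22.5 ± 3.92, n = 4) and Bhlhe40 (22 ± 1.62) were ahead of the rest. Bhlhe41 (16.9 ± 2.51), Nampt (12.5 ± 0.839) and Usp2 (12.1 ± 1.13) followed. Ciart overlapped Bhlhe40 and also Bhlhe41, which ranged from 14.3 to 19.7. Nampt (11.9 to 13.7) overlapped Usp2 (10.9 to 13.6). Ciart thus went from the lowest of the 5 in the control night to the highest mean in the DKO night, with libraries from 17.5 to 26 that enclose the 20.6 to 24.3 of Bhlhe40. This scale depends on the exon models of the table, and the model of Bhlhe41 has 1 long block from 145858243 to 145863867.

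The balance of the paralogs was followed as the ratio of Bhlhe41 to Bhlhe40 per kilobase in each library. At CT16 it was 0.559, 0.583, 0.617, 0.68 and 0.759 in control and 0.696, 0.708, 0.809 and 0.849 in DKO. The groups overlapped through control CT16 replicate 1, and the mean log2 ratio was higher in DKO by 0.263 (exact two-sided permutation test, p = 0.0635, where 0.0159 is the smallest p possible). Of the 9 libraries left out singly, this was the 1 that took p under 0.05 (0.327, exact two-sided permutation test, p = 0.0286). The groups then no longer overlap, and 0.0286 is the smallest p that 4 against 4 libraries can give. The highest p over the 9 was 0.143. At CT4 the ratio was 0.547 to 0.637 in control and 0.509 to 0.617 in DKO, a difference of -0.105 (exact two-sided permutation test, p = 0.4, where 3 against 3 cannot go below 0.1).

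**Figure D3:**
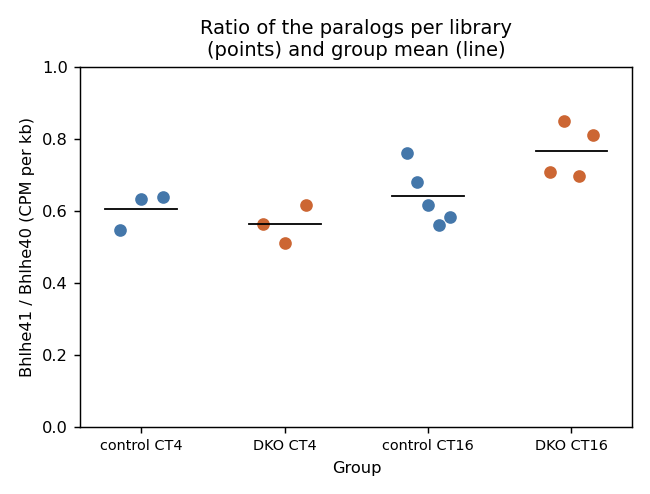
Ratio of Bhlhe41 to Bhlhe40 in CPM per kilobase (y axis, from 0) in each library (points) and as group mean (line), by genotype and time (x axis). The DKO libraries at CT16, at 0.696 to 0.849, lie above those of the other groups except control CT16 replicate 1, at 0.759.

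The upstream activators were measured in the same libraries. Npas2, the relative of CLOCK, stood at 14.4 to 18.9 CPM in all control libraries, 33.5 to 44.7 CPM in DKO at CT4 and 45 to 74.7 CPM in DKO at CT16. It rose by 1.20 ± 0.17 at CT4 and 1.92 ± 0.14 at CT16 (edgeR quasi-likelihood test, adjusted p = 0.00666 and 3.07e-06). Arntl, which encodes BMAL1, had a difference of 0.65 ± 0.16 at CT4 (adjusted p = 0.0661) and rose by 1.18 ± 0.13 at CT16 (adjusted p = 0.000112). Its CT4 difference passed in 7 of 23 alternative settings and stayed uncalled in 16 (edgeR quasi-likelihood test, highest adjusted p = 0.214). At CT4 it stood at 39.2 to 43 CPM in control and 63.2 to 66.6 CPM in DKO. Clock stood at -0.08 ± 0.07 at CT4 and rose by 0.22 ± 0.06 at CT16 (adjusted p = 0.0345), from 122 to 142 CPM in control to 139 to 159 CPM in DKO, ranges that overlap. The call of Clock was lost in 11 of 23 alternative settings (highest adjusted p = 0.115). Of the 4 activator genes (with Arntl2), 1 rose at CT4 and 3 rose at CT16 (25% and 75%, beside 1.28% and 4.66% of all genes). Of 8 clock genes with ROR elements, 3 rose at CT4 and 5 at CT16 (37.5% and 62.5%). However, Arntl, Clock and Npas2 are the activators just counted and Cry1 is also in the E-box list that follows. The called gene in this list alone was Nfil3, whose protein represses at D-boxes. It rose by 1.35 ± 0.16 and 1.37 ± 0.13 at CT4 and CT16 (edgeR quasi-likelihood test, adjusted p = 0.00156 and 1.36e-05).

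Among 14 other E-box clock genes and outputs, 5 rose in DKO at CT4 and 8 at CT16, and none fell, or 35.7% and 57.1% beside 1.28% and 4.66% of all genes. The list holds Nr1d1 and Nr1d2, the targeted genes, and without them 4 of 12 rose at CT4 and 6 of 12 at CT16. Members and lists were chosen with earlier results of these data known, so such shares describe them and are no independent test. The median of the 14 was 0.24 at CT4 and 0.46 at CT16. The 5 at CT4 were Per3 (0.42 ± 0.09), Cry2, Nr1d2, Cry1 and Dbp (0.89 ± 0.18). Of these, Cry2 passed in all 23 alternative settings, while the call was lost in 10 for Dbp, 8 for Per3, 7 for Cry1 and 5 for Nr1d2. At CT16 Nr1d2 (1.07 ± 0.07), Cry2 (0.55 ± 0.05), Dbp (1.90 ± 0.15) and Nr1d1 had the smallest p. Per1 (0.37 ± 0.10, adjusted p = 0.0565) and Per2 (-0.01 ± 0.18, adjusted p = 0.975) did not pass at CT16 (edgeR quasi-likelihood test), like Usp2 and Nampt. With time, Nr1d1 (-0.75 ± 0.13) and Dbp (-0.81 ± 0.16) fell in control and Per1 and Nr1d2 rose in DKO. In each genotype 12 of the 14 did not pass. The 2 called were 14.3% of the list, beside 4.21% of all genes in control and 1.8% in DKO.

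Genes with the most similar profile were found for each member by the root mean square difference of log2 CPM over the 15 libraries, each gene centred and scaled to its own SD, among 13548 genes. All genes share the libraries and their depth. Nearest to Bhlhe41 were Dbp (0.198 SD) and Ciart (0.205 SD), and nearest to Ciart were Pfkfb3 (0.205 SD), Bhlhe41 and Nr1d2 (0.271 SD). Bhlhe41 and Ciart were each the second-nearest gene of the other on this measure, and on ranked profiles each was the nearest. Bhlhe40 had other neighbours, Ntn1 (0.306 SD), Smpdl3b (0.335 SD) and Hes6 (0.345 SD), and Bhlhe40 held rank 129 among the genes nearest to Bhlhe41. Nearest to Usp2 were Arl4d (0.241 SD), Klf15 (0.256 SD), Nfkbia (0.259 SD), Sgk1 (0.294 SD) and Tsc22d3 (0.298 SD). All 5 rose with time in both genotypes, which largely follows from their choice by likeness to Usp2 in these libraries. Nampt had no close profile, and its nearest gene, Wapal, differed by 0.579 SD.

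**Figure D4:**
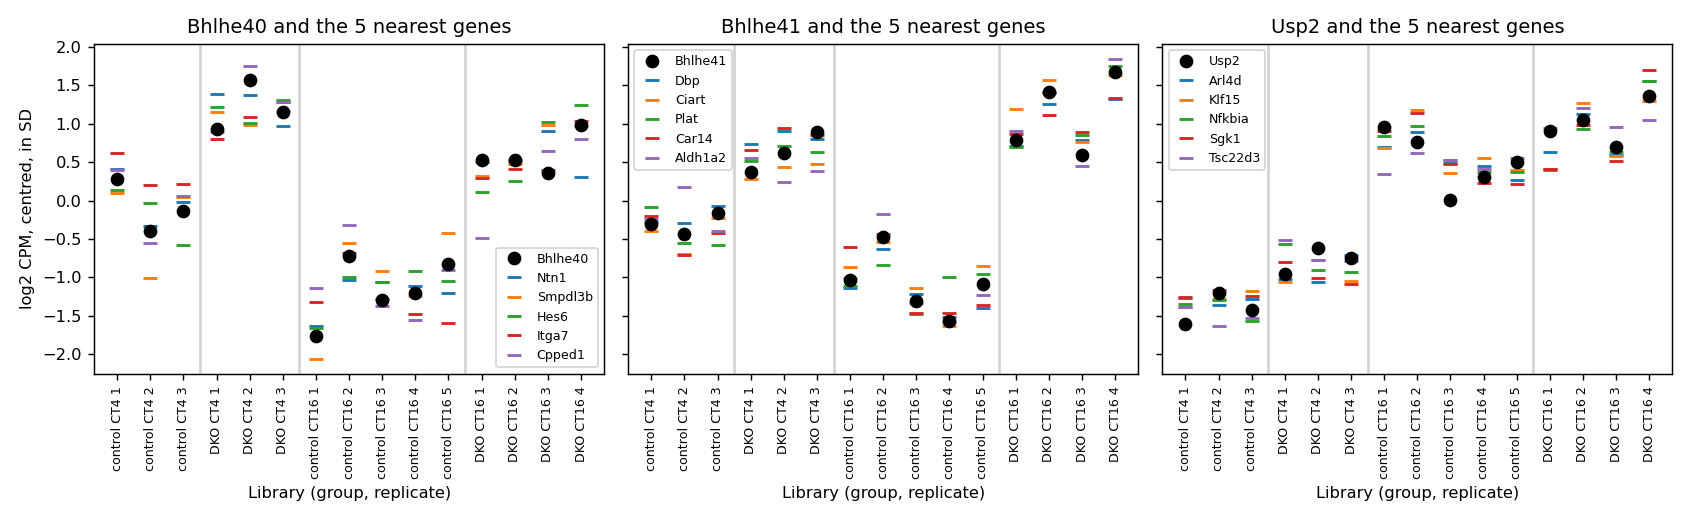
Log2 CPM, centred and in SD of each gene (y axis), of Bhlhe40, Bhlhe41 and Usp2 (black points) and their 5 nearest genes (coloured dashes) in each library (x axis, grouped by genotype and time). Control CT16 is on average the lowest group for Bhlhe40, Bhlhe41 and the genes nearest to them, and both CT16 groups are high for Usp2 and its nearest genes.

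The nearest tested genes on the chromosome were not called in genotype or time. For Ciart, Mrps21 stood at 0.01 ± 0.11 at CT4 and 0.15 ± 0.09 at CT16 in DKO (adjusted p = 0.981 and 0.379), and C920021L13Rik, whose span covers Ciart on the other strand, at 0.03 ± 0.23 and 0.10 ± 0.19. For Bhlhe41, Sspn stood at 0.45 ± 0.13 at CT16 (edgeR quasi-likelihood test, adjusted p = 0.0666) and Rassf8 at 0.15 ± 0.07 (adjusted p = 0.256). For Bhlhe40, Arl8b stood at -0.03 ± 0.04 and Itpr1 at 0.27 ± 0.22 at CT16. For Usp2, which changed with time, Thy1 and Rnf26 stood at 0.17 ± 0.16 and -0.08 ± 0.08 between CT4 and CT16 in control.

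Genes of the pathways of Usp2 and Nampt were counted in the same way. Of 47 tested ubiquitin-specific protease genes other than Usp2, none was called at CT4 (8 at an unadjusted p under 0.05). DESeq2 called 2 lower there, among 584 genes in all. At CT16 Usp3 (0.33 ± 0.08, edgeR quasi-likelihood test, adjusted p = 0.0254) and Usp24 (0.14 ± 0.03, adjusted p = 0.0313) rose in DKO, or 4.26% beside 4.66% of all genes, and neither call held without the 3 libraries that stood apart (adjusted p = 0.261 and 0.137). With time 3 of the 47 were called in control (6.38% beside 4.21% of all genes) and 1 in DKO (2.13% beside 1.8%). Usp53 rose in control (0.69 ± 0.08, adjusted p = 8.81e-05) and in DKO (0.67 ± 0.08, adjusted p = 0.000398), the 1 other family member called in both genotypes. Of 26 genes of NAD synthesis and use other than Nampt, none was called in genotype at CT4 or CT16 (4 each at an unadjusted p under 0.05). DESeq2 called 2 and 1 of the 26, all lower, among 584 and 1267 genes in all. The medians of the 26 were -0.07 and 0.09. None of the 26 was called with time in control either (8 at an unadjusted p under 0.05, and 2 with DESeq2, among 1317 genes in all). Sirt4, a mitochondrial sirtuin, rose in DKO by 0.27 ± 0.07 (edgeR quasi-likelihood test, adjusted p = 0.0405). That call was lost in 15 of 23 alternative settings (highest adjusted p = 0.43).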

How the data were processed

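RNA sequencing counts of SCN punches were analysed in 4 groups of 3 to 5 libraries. The authors deposited raw read counts per gene, with exonic length. Per the submitters' processing notes, STAR, featureCounts, DESeq2 and mm10 were used. Their versions, the annotation and the strand setting were not given in the sources used here. Exonic lengths, in bases, are a column of the deposited table.

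Genes were kept by filterByExpr, which left 16910 of 24419. With TMM factors, edgeR 4.0.16 (R 4.3.3) fitted 4 group means to all 15 libraries (11 residual degrees of freedom). The 5 contrasts were assessed with the robust quasi-likelihood test, with Benjamini-Hochberg adjustment over all tested genes and calls at 0.05. Standard errors come from the log2 fold change and its F statistic. Levels are CPM on TMM-scaled library sizes, and log2 CPM used a prior count of 2. Ratios were tested by exact permutation with scipy 1.17.1. The fit was tested on simulated counts. No pair of libraries of a group was alike within sampling noise (chi-square per degree of freedom of at least 6.554).

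Members and lists were chosen with earlier results of these data known. Named were the members, activators, Nfil3, up to 4 called genes of smallest p per list, and the 5 nearest profiles, of which the closest are printed. Per1, Per2 and the chromosomal neighbours were added after their values were seen. Alternatives were RLE factors, no and stricter count filters (at least 1 CPM in 3 libraries), DESeq2 1.42.0, the compared groups alone, a replicate block, marker scores as covariates, and libraries left out singly or 3 together.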

Additional observations from a re-analysis of the deposited data

How the results depend on the processing

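Of the 25 member results, 521 values under other settings kept direction and call, 9 lost and 20 gained a call, and 20 changed sign, all of Nampt and none called; the calls of Ciart, Bhlhe41 and Bhlhe40 at CT16 and of Usp2 with time held in all 23. The count of members called moved at CT4 from 1 to 3 with DESeq2, 4 in the compared groups alone and 2 with marker scores. With time in control it moved from 2 to 1 without the 3 libraries and to 3 with DESeq2 or marker scores, in DKO from 1 to 2 with DESeq2 or without the 3 libraries, and for the interaction from 0 to 2 with DESeq2 and 1 without the 3 libraries. Leaving out single libraries gave 0 to 1 members at CT4, 3 at CT16, 1 to 3 and 1 to 2 with time in control and DKO, and 0 to 2 for the interaction. The count over all genes moved more. At CT4 (217) it was 584 with DESeq2, 794 in the compared groups alone, 104 with the replicate block, 140 with marker scores and 610 without the 3 libraries. At CT16 (788) these were 1267, 366 and 503, and 419 without the 3 libraries. With time in control (712) they were 1317 with DESeq2, 379 with the block and 1279 with marker scores, and in DKO (304) 874, 47 in the compared groups alone, 159 with the block, 186 with marker scores and 1182 without the 3 libraries. For the interaction (2) they were 6 with no filter, 360 with DESeq2, 1 with the replicate block, 5 with marker scores and 424 without the 3 libraries. Single libraries left out gave 16 (without control CT4 replicate 3) to 323 at CT4, 384 (without DKO CT16 replicate 2) to 1327 (without DKO CT16 replicate 1) at CT16, 236 to 1059 with time in control, 103 to 1456 in DKO and 1 to 301 for the interaction. The difference in log2 ratio of the paralogs ranged from 0.211 to 0.327 at CT16 and from -0.177 to -0.036 at CT4 with single libraries left out. The cause of these shifts was not tested. The replicate block changed no member's call; same-numbered libraries correlated in their deviations from group means at -0.184 to 0.138, not all above 0.1 in any comparison, so the numbers were not taken as pairs, although all 3 DKO CT4 libraries matched the DKO CT16 library of their own number best. The lowest member count in a library was 378 reads (Ciart, control CT16 replicate 1).

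Of 79 results of other named genes, 1562 values kept direction and call, 205 lost and 23 gained a call, and 21 uncalled values changed sign. The log2 values with the opposite sign were as follows. Without the 3 libraries Nampt stood at -0.0341 at CT4, -0.005 at CT16 and -0.0374 with time in DKO. With time in DKO, Nampt also stood at -0.0053 with the stricter filter, -0.0003 with DESeq2, -0.001 in the compared groups alone and -0.0161 with the replicate block. With time in control, marker scores gave 0.0098 for Nampt, 0.0078 for Clock and 0.1127 for Npas2, and the replicate block 0.005 for Npas2. Marker scores gave 0.0673 for Per1 at CT4 and -0.3249 for the interaction of Nfil3, for which the replicate block gave -0.0214. With single libraries left out, Nampt ranged from -0.0409 to 0.0689 at CT4, -0.011 to 0.0671 at CT16, -0.0668 to 0.0268 with time in control, -0.0505 to 0.0593 in DKO and -0.0324 to 0.0774 for the interaction. Per2 then ranged from -0.1988 to 0.1795 at CT4, -0.0959 to 0.1423 at CT16 and -0.194 to 0.1843 for the interaction, Npas2 from -0.0626 to 0.0434 with time in control, and Nfil3 from -0.0394 to 0.1797 for the interaction.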

Other observations

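Bhlhe40 is also known as a hypoxia-induced and activity-induced gene, and lists of such genes were followed beside it. Of 14 hypoxia-induced genes, 1 rose in DKO at CT4 (Hif3a, 1.10 ± 0.18, edgeR quasi-likelihood test, adjusted p = 0.0126) and 2 at CT16 (Ddit4, 0.49 ± 0.12, adjusted p = 0.0269, and Car9, 0.60 ± 0.16, adjusted p = 0.0377). These were 7.14% and 14.3% of the list, beside 1.28% and 4.66% of all genes. The call was lost in 4 of 23 alternative settings for Hif3a, 8 for Ddit4 and 11 for Car9. The medians of the list were 0.08 and 0.04. At night in control, Hif3a (2.93 ± 0.17), Ddit4 (0.92 ± 0.13) and the glucose transporter gene Slc2a1 (0.71 ± 0.06) rose, and Vegfa (-0.29 ± 0.07) and Ankrd37 (-0.71 ± 0.15) fell. In DKO Hif3a, Ddit4 and Slc2a1 rose and none fell. With time 5 of the 14 were called in control (35.7% beside 4.21% of all genes) and 3 in DKO (21.4% beside 1.8%). Of 16 immediate early genes, which neuronal activity induces, 1 was called in genotype at CT4 (6.25% beside 1.28% of all genes). This was Nr4a3, which fell in DKO (-1.45 ± 0.29, edgeR quasi-likelihood test, adjusted p = 0.0383), a call lost in 11 of 23 alternative settings. None was called at CT16, where 3 had an unadjusted p under 0.05 and 2 were lower with DESeq2, among 1267 genes it called in all. In control 4 of the 16 rose at night (25% beside 4.21% of all genes), among them Fosb (3.37 ± 0.38) and Egr3 (1.66 ± 0.30). In DKO 3 of the 16 rose at night (18.8% beside 1.8%). These were Fosb (2.04 ± 0.37), Fosl2 (1.68 ± 0.28) and Nr4a3 (1.48 ± 0.28). Their calls in DKO were lost in 4, 3 and 7 of 23 alternative settings.

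Bhlhe40 and Bhlhe41 belong to the bHLH-Orange family of repressors. Of its 8 other tested members, Hes6 rose in DKO at CT16 (0.41 ± 0.07, edgeR quasi-likelihood test, adjusted p = 0.00114) and Hes5, a Notch target, fell (-0.96 ± 0.17, adjusted p = 0.004), and 6 did not pass. At night Hes1 (-0.64 ± 0.13), Hes5 (-0.93 ± 0.18) and Heyl (-0.55 ± 0.09) fell in control. In DKO Hes5 (-1.29 ± 0.19) and Heyl (-0.56 ± 0.10) fell at night. The called genes were 25% of the 8 in genotype at CT16, beside 4.66% of all genes, and none was called at CT4. With time they were 37.5% in control, beside 4.21%, and 25% in DKO, beside 1.8%.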
